A study of Mus musculus with 8 samples.

Results

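The levels of 39 endothelial genes were examined in whole mouse liver and in liver cells sorted for their collagen reporter, their vitamin A or a mesothelial surface protein. The genes were listed by name as known genes of sinusoidal and vascular endothelium, and all 39 were found among the 20677 genes measured. Each gene is represented by its probe set (a spot group on the array that targets 1 transcript region) with the highest mean over the arrays. Levels are log2 intensities, and differences between arrays are on the same log2 scale, where a difference of 2 is 4-fold. Probe sets of different genes bind with different strength, so levels are compared between arrays for 1 gene and never between genes.

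RNA was measured on 8 Affymetrix mouse expression arrays, 1 array per group, so no result has a replicate, an error or a test. All mice were adult, on the C57Bl6 background. The 7 sorted fractions came from Col1a1-GFP transgenic mice, in which a collagen promoter drives green fluorescent protein, and the whole liver came from a wild type mouse. The fractions were GPM6A+ mesothelial cells (MC) of biliary fibrosis, portal fibroblasts (PF) of biliary fibrosis, PF of a sham operation, VitaminA-GFP+ cells (VitA-GFP+ cells below), VitaminA+ hepatic stellate cells (HSC) of biliary fibrosis, HSC, and MC. The VitA-GFP+ cells are vitamin A-negative and GFP-positive, the hyphen of their label being a minus sign. The fractions of biliary fibrosis are written BF-MC, BF-PF and BF-HSC here. The labels name no injury for the VitA-GFP+ cells, HSC and MC, and they give neither how biliary fibrosis was produced, nor the gate for PF, nor how many animals went into a sample. No fraction was sorted as endothelium. A fraction is a mixture measured in bulk, and fewer endothelial cells cannot be told apart from less endothelial RNA per cell.

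Liver sinusoids are capillaries whose endothelium is perforated, lacks an ordinary basement membrane and clears macromolecules from blood through scavenger receptors such as the stabilins. Endothelial cells of larger vessels share with it the junction proteins, the vascular endothelial growth factor (VEGF) receptors and the angiopoietin receptors. ETS factors such as Erg and the SoxF factors Sox7, Sox17 and Sox18 are known to switch on many genes of this programme. HSC lie along the sinusoid wall as its pericytes, PF lie around the portal tracts, and MC cover the liver surface.

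As a check of the group of genes, Pecam1 and Cdh5, the defining junction molecules of endothelium, were read first. The Pecam1 level was 6.66 in BF-MC, 4.47 in BF-PF, 3.69 in sham PF, 8.48 in VitA-GFP+ cells, 4.15 in BF-HSC, 3.72 in HSC, 4.80 in MC and 6.76 in whole liver. The Cdh5 level was 5.48 in BF-MC, 5.77 in BF-PF, 4.63 in sham PF, 7.25 in VitA-GFP+ cells, 4.97 in BF-HSC, 2.83 in HSC, 3.80 in MC and 6.41 in whole liver. Both were highest in VitA-GFP+ cells, were next highest in whole liver, and were lowest in HSC or sham PF.

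The arrays differ in quality and in sex-linked RNA. The ratio of the 3′ to the 5′ control probe sets of Gapdh, which grows as the cDNA covers less of the 5′ end, was between 5.68 and 13.8 on BF-MC, BF-PF, sham PF and BF-HSC and between 1.42 and 2.01 on the other 4 arrays. The pairs BF-HSC against HSC and BF-MC against MC therefore set a high ratio against a low one, and the pair BF-PF against sham PF sets 10.2 in BF-PF against 13.2 in sham PF. The HSC and MC pairs also cross different series of sample codes in the labels, whereas BF-PF and sham PF share a series. VitA-GFP+ cells carry a code of another series than HSC, MC and whole liver, which share theirs, so every comparison of VitA-GFP+ cells crosses series too. Xist was 11.96 in sham PF, 11.41 in MC and 11.40 in whole liver, against at most 5.84 on the other 5 arrays, and the Y-linked gene Ddx3y was 9.67 in MC, so that the MC array carried both. Ddx3y was 2.78 in sham PF and 2.04 in whole liver, against 11.83 in BF-PF and 10.47 in VitA-GFP+ cells. BF-PF against sham PF, and VitA-GFP+ cells against whole liver or sham PF, thus differ in both genes. The HSC pair does not, with Ddx3y at 11.57 in BF-HSC and 10.99 in HSC. At or above the array median were 10 of 10 HSC markers in HSC, 9 of 9 PF markers in sham PF and 9 of 9 mesothelial markers in MC. Of all genes 54.4% were so in HSC, 58.1% in sham PF and 55.4% in MC. These counts do not set the fractions apart. All HSC markers also reached the median in sham PF, BF-HSC and VitA-GFP+ cells. All PF markers did so in BF-PF, BF-HSC and VitA-GFP+ cells, and all mesothelial markers in BF-MC, BF-PF and VitA-GFP+ cells.

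Of the 39 genes, 33 had their highest level of all 8 arrays in VitA-GFP+ cells, against 7.05% of all genes. HSC held the highest level of Plvap, Calcrl and Ehd3, MC that of Esam and Aqp1, and BF-MC that of Mmrn1. In VitA-GFP+ cells 38 of the 39 stood at or above the array's own median, with a median 4.87 above it, and Mmrn1 was the exception at 0.84 below. The count was 31 in BF-MC, 26 in BF-PF, 24 in sham PF, 26 in BF-HSC, 12 in HSC, 17 in MC and 36 in whole liver. Of all genes, between 54.4% (HSC) and 59.6% (BF-MC) reached the median of their array, and 57.3% did so in VitA-GFP+ cells. Relative to the array median, the median of the 39 genes was 1.29 in BF-MC, 1.10 in BF-PF, 0.59 in sham PF, 1.31 in BF-HSC, -0.87 in HSC, -0.72 in MC and 2.29 in whole liver.

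**Figure D1:**
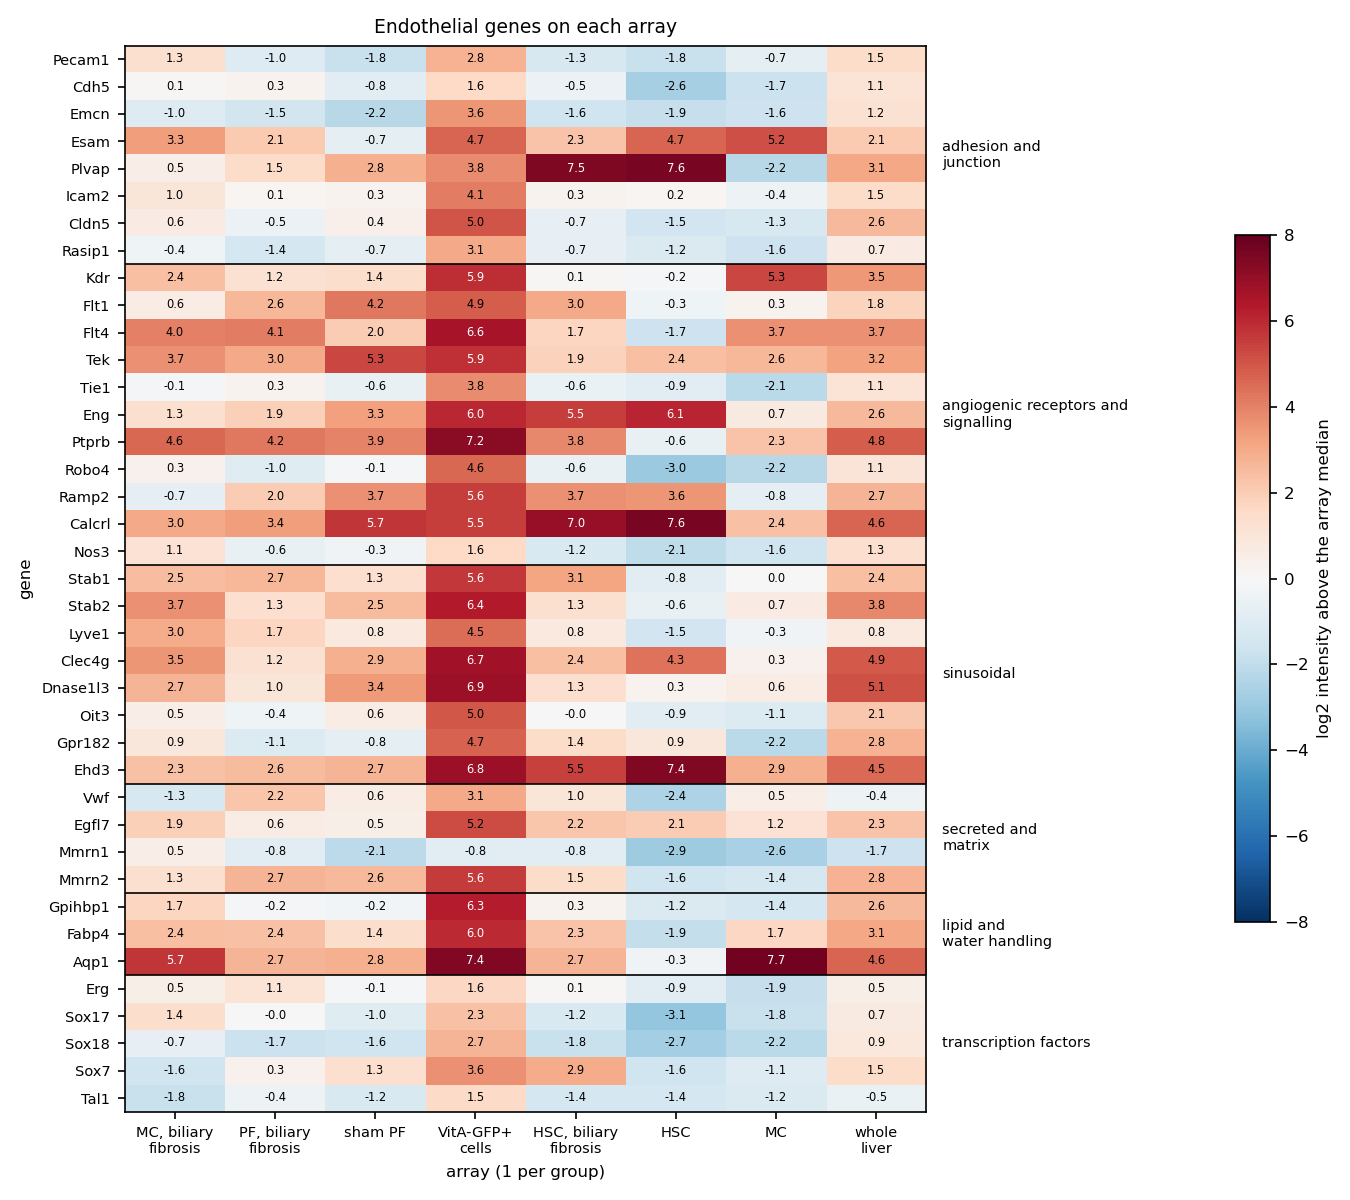
Levels of the 39 endothelial genes (rows, grouped by role) on each of the 8 arrays (columns), as log2 intensity above the array's own median; red is above the median and blue below. The VitA-GFP+ column is red for 38 of 39 genes, while the HSC and MC columns are blue for most genes, with single strong exceptions such as Plvap in HSC and Aqp1 in MC.

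Among the 3 fractions with no stated injury, VitA-GFP+ cells carried nearly the whole set. The call rule asks for a difference of 2 or more in either direction (4-fold), and for a level on the brighter array that reaches that array's median over probe sets. By this rule 31 of the 39 genes were higher in VitA-GFP+ cells than in both HSC and MC, against 3.15% of all genes. The median difference of the 39 genes from the higher of the 2 other fractions was 4.0, and that of all genes was -0.31. The rule was met by 7 of 8 sinusoidal genes, 6 of 8 adhesion and junction genes, 8 of 11 angiogenic receptors and signalling genes, 3 of 4 secreted and matrix genes, 2 of 3 genes of lipid and water handling, and 5 of 5 transcription factors. The 8 that did not meet it were Esam, Plvap, Kdr, Eng, Calcrl, Ehd3, Mmrn1 and Aqp1.

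The scavenger receptors and other sinusoidal genes set VitA-GFP+ cells apart. Stab2, a clearance receptor for hyaluronan, was at 9.03 in BF-MC, 6.82 in BF-PF, 7.96 in sham PF, 12.03 in VitA-GFP+ cells, 6.76 in BF-HSC, 4.85 in HSC, 6.18 in MC and 9.14 in whole liver. Stab1, its relative, was at 7.86 in BF-MC, 8.16 in BF-PF, 6.80 in sham PF, 11.32 in VitA-GFP+ cells, 8.58 in BF-HSC, 4.64 in HSC, 5.54 in MC and 7.72 in whole liver. Lyve1, another hyaluronan receptor and also a gene of lymphatic endothelium and some macrophages, was at 8.35 in BF-MC, 7.22 in BF-PF, 6.22 in sham PF, 10.13 in VitA-GFP+ cells, 6.20 in BF-HSC, 3.94 in HSC, 5.26 in MC and 6.08 in whole liver. For all 3, VitA-GFP+ cells stood above every other array, with whole liver next for Stab2, BF-HSC next for Stab1 and BF-MC next for Lyve1. Clec4g, a C-type lectin of sinusoidal endothelium, was at 8.89 in BF-MC, 6.71 in BF-PF, 8.31 in sham PF, 12.41 in VitA-GFP+ cells, 7.86 in BF-HSC, 9.78 in HSC, 5.86 in MC and 10.20 in whole liver. Dnase1l3, a secreted nuclease made by sinusoidal endothelium and by some macrophages, was at 8.07 in BF-MC, 6.45 in BF-PF, 8.84 in sham PF, 12.53 in VitA-GFP+ cells, 6.77 in BF-HSC, 5.77 in HSC, 6.09 in MC and 10.37 in whole liver. Gpr182, an atypical chemokine receptor, was at 6.23 in BF-MC, 4.38 in BF-PF, 4.67 in sham PF, 10.40 in VitA-GFP+ cells, 6.89 in BF-HSC, 6.40 in HSC, 3.35 in MC and 8.06 in whole liver. These genes were highest in VitA-GFP+ cells and next highest in whole liver, and Clec4g had 9.78 in HSC, close to its whole liver level. Its probe sets disagreed in the comparison with HSC and MC, with differences between -0.85 and 2.63. Ehd3, which works in endocytic recycling, followed another pattern with 7.69 in BF-MC, 8.03 in BF-PF, 8.16 in sham PF, 12.52 in VitA-GFP+ cells, 10.92 in BF-HSC, 12.89 in HSC, 8.40 in MC and 9.86 in whole liver. Its levels in HSC and in VitA-GFP+ cells lay within 0.37 of each other. Oit3, the remaining sinusoidal gene, was at 10.63 in VitA-GFP+ cells, against 4.60 in HSC and 4.42 in MC.

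The junction genes divided in a similar way. Cldn5, the claudin of endothelial tight junctions, was at 6.0 in BF-MC, 5.01 in BF-PF, 5.87 in sham PF, 10.71 in VitA-GFP+ cells, 4.79 in BF-HSC, 3.96 in HSC, 4.26 in MC and 7.89 in whole liver. Esam, an immunoglobulin-type adhesion molecule of endothelium, was at 8.67 in BF-MC, 7.56 in BF-PF, 4.72 in sham PF, 10.34 in VitA-GFP+ cells, 7.74 in BF-HSC, 10.14 in HSC, 10.70 in MC and 7.40 in whole liver. Plvap, the protein of the diaphragms that span endothelial pores, was at 5.90 in BF-MC, 6.95 in BF-PF, 8.27 in sham PF, 9.46 in VitA-GFP+ cells, 12.94 in BF-HSC, 13.05 in HSC, 3.28 in MC and 8.37 in whole liver. Among the fractions, Cldn5 exceeded its whole liver level in VitA-GFP+ cells only, Esam was high in VitA-GFP+ cells, HSC and MC alike, and Plvap was 3.59 lower in VitA-GFP+ cells than in HSC. The others of this role, Pecam1, Cdh5, the sialomucin Emcn, the leukocyte ligand Icam2 and the vessel lumen regulator Rasip1, were 3.45 to 5.37 higher in VitA-GFP+ cells than in the higher of HSC and MC.

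Receptors were high on differing sets of arrays. Ptprb, a phosphatase that restrains the angiopoietin receptor, was at 9.96 in BF-MC, 9.70 in BF-PF, 9.40 in sham PF, 12.93 in VitA-GFP+ cells, 9.28 in BF-HSC, 4.90 in HSC, 7.79 in MC and 10.12 in whole liver. Flt4, the VEGF receptor best known from lymphatic and sinusoidal endothelium, was at 9.37 in BF-MC, 9.56 in BF-PF, 7.46 in sham PF, 12.30 in VitA-GFP+ cells, 7.18 in BF-HSC, 3.81 in HSC, 9.18 in MC and 8.97 in whole liver. Tek, the angiopoietin receptor, was at 9.02 in BF-MC, 8.51 in BF-PF, 10.80 in sham PF, 11.55 in VitA-GFP+ cells, 7.32 in BF-HSC, 7.85 in HSC, 8.17 in MC and 8.52 in whole liver. VitA-GFP+ cells stood highest for each, and sham PF came within 0.75 of them for Tek. Flt1, a VEGF receptor that also acts as a decoy, was at 5.93 in BF-MC, 8.12 in BF-PF, 9.64 in sham PF, 10.55 in VitA-GFP+ cells, 8.48 in BF-HSC, 5.15 in HSC, 5.80 in MC and 7.11 in whole liver. Kdr, the main signalling VEGF receptor, was at 7.77 in BF-MC, 6.68 in BF-PF, 6.85 in sham PF, 11.57 in VitA-GFP+ cells, 5.57 in BF-HSC, 5.30 in HSC, 10.85 in MC and 8.76 in whole liver. Flt1 was low in MC and HSC and high in sham PF, whereas Kdr was within 0.72 of the VitA-GFP+ level in MC and low in HSC. Robo4, a guidance receptor of endothelium, was at 5.70 in BF-MC, 4.49 in BF-PF, 5.38 in sham PF, 10.30 in VitA-GFP+ cells, 4.85 in BF-HSC, 2.48 in HSC, 3.31 in MC and 6.36 in whole liver. Nos3, the endothelial nitric oxide synthase, was at 6.49 in BF-MC, 4.89 in BF-PF, 5.19 in sham PF, 7.29 in VitA-GFP+ cells, 4.22 in BF-HSC, 3.41 in HSC, 3.94 in MC and 6.65 in whole liver. Both were highest in VitA-GFP+ cells and lowest in HSC. Calcrl, which forms the adrenomedullin receptor together with Ramp2, was at 8.36 in BF-MC, 8.84 in BF-PF, 11.19 in sham PF, 11.22 in VitA-GFP+ cells, 12.43 in BF-HSC, 13.04 in HSC, 7.87 in MC and 9.95 in whole liver. It was high in HSC, BF-HSC, sham PF and VitA-GFP+ cells. Ramp2 itself was at 4.61 in BF-MC, 7.48 in BF-PF, 9.10 in sham PF, 11.24 in VitA-GFP+ cells, 9.12 in BF-HSC, 9.03 in HSC, 4.74 in MC and 8.05 in whole liver. It was highest in VitA-GFP+ cells, close to 9 in sham PF, BF-HSC and HSC, and low in BF-MC and MC. Eng, a co-receptor for bone morphogenetic proteins, was at 11.72 in VitA-GFP+ cells, against 11.56 in HSC and 6.26 in MC. Tie1, the partner of Tek, was at 9.44 in VitA-GFP+ cells, against 4.61 in HSC and 3.38 in MC.

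Values for Ramp2 come from the probe set that names this gene alone. Another probe set names Ramp2 together with Vps25, has a higher mean over the arrays and was left out. It read 9.86 in VitA-GFP+ cells, against 9.81 in HSC, 9.17 in MC and 10.40 in whole liver, so the difference of Ramp2 does not appear there. With it, Ramp2 would not be called higher in VitA-GFP+ cells than in HSC and MC, nor than in whole liver. A further probe set naming both genes was left out too. That probe set read 9.06 in VitA-GFP+ cells, against 9.28 in HSC, 8.61 in MC and 10.11 in whole liver.

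Among secreted and matrix genes, Mmrn2, a matrix glycoprotein of endothelium, was at 6.64 in BF-MC, 8.20 in BF-PF, 8.07 in sham PF, 11.25 in VitA-GFP+ cells, 6.95 in BF-HSC, 3.85 in HSC, 4.11 in MC and 8.08 in whole liver. Egfl7, a secreted factor of vessel growth, was at 7.23 in BF-MC, 6.04 in BF-PF, 5.91 in sham PF, 10.92 in VitA-GFP+ cells, 7.67 in BF-HSC, 7.52 in HSC, 6.68 in MC and 7.60 in whole liver. Vwf, the blood protein that tethers platelets to vessel walls, was at 4.05 in BF-MC, 7.72 in BF-PF, 6.05 in sham PF, 8.74 in VitA-GFP+ cells, 6.44 in BF-HSC, 3.02 in HSC, 6.04 in MC and 4.90 in whole liver. All 3 were highest in VitA-GFP+ cells, and Vwf was nearest to that level in BF-PF. Mmrn1, a multimerin of platelets and endothelium, was at 5.86 in BF-MC, 4.64 in BF-PF, 3.38 in sham PF, 4.84 in VitA-GFP+ cells, 4.60 in BF-HSC, 2.61 in HSC, 2.96 in MC and 3.64 in whole liver. It was below the array median on every array but BF-MC.

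Genes of lipid and water handling included the largest difference of the set. Gpihbp1, which carries lipoprotein lipase across capillary walls, was at 7.07 in BF-MC, 5.31 in BF-PF, 5.24 in sham PF, 11.94 in VitA-GFP+ cells, 5.72 in BF-HSC, 4.29 in HSC, 4.11 in MC and 7.93 in whole liver. Fabp4, a fatty acid carrier of capillaries that adipocytes and macrophages also express, was at 7.74 in BF-MC, 7.85 in BF-PF, 6.87 in sham PF, 11.63 in VitA-GFP+ cells, 7.74 in BF-HSC, 3.59 in HSC, 7.21 in MC and 8.42 in whole liver. Aqp1, a water channel that mesothelium and bile duct cells express as well, was at 11.10 in BF-MC, 8.20 in BF-PF, 8.30 in sham PF, 13.10 in VitA-GFP+ cells, 8.18 in BF-HSC, 5.20 in HSC, 13.23 in MC and 9.95 in whole liver. Gpihbp1 differed by 7.65 between VitA-GFP+ cells and the higher of HSC and MC, followed by Mmrn2 at 7.14, Robo4 at 6.98, Cldn5 at 6.45 and Dnase1l3 at 6.44. Aqp1 was as high in MC as in VitA-GFP+ cells and low in HSC.

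In VitA-GFP+ cells all 5 transcription factors exceeded the array median, and in HSC and MC they lay below it. Sox7 was at 3.78 in BF-MC, 5.79 in BF-PF, 6.78 in sham PF, 9.31 in VitA-GFP+ cells, 8.39 in BF-HSC, 3.86 in HSC, 4.47 in MC and 6.79 in whole liver. Sox18 was at 4.69 in BF-MC, 3.74 in BF-PF, 3.84 in sham PF, 8.39 in VitA-GFP+ cells, 3.65 in BF-HSC, 2.78 in HSC, 3.34 in MC and 6.18 in whole liver. Sox17 was at 6.73 in BF-MC, 5.44 in BF-PF, 4.47 in sham PF, 8.0 in VitA-GFP+ cells, 4.24 in BF-HSC, 2.40 in HSC, 3.72 in MC and 6.02 in whole liver. Each was highest in VitA-GFP+ cells, with BF-HSC next for Sox7, whole liver next for Sox18 and BF-MC next for Sox17. Erg, an ETS factor of endothelium, was at 5.84 in BF-MC, 6.58 in BF-PF, 5.36 in sham PF, 7.32 in VitA-GFP+ cells, 5.55 in BF-HSC, 4.58 in HSC, 3.67 in MC and 5.78 in whole liver. Tal1, a factor of blood and endothelial precursors, was at 7.18 in VitA-GFP+ cells, against 4.06 in HSC and 4.37 in MC.

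**Figure D2:**
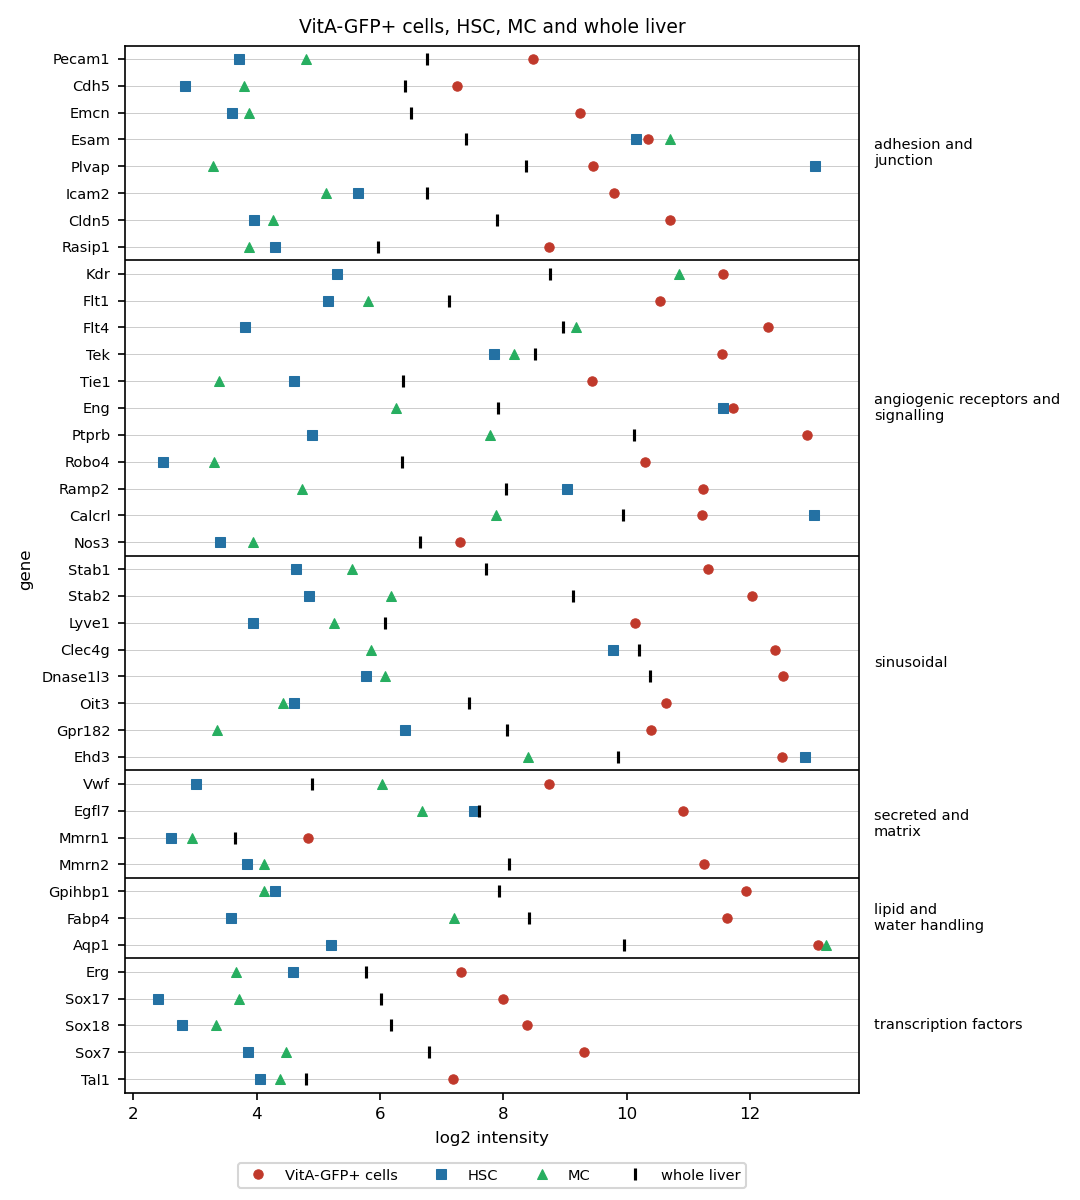
Log2 intensity (horizontal axis) of each of the 39 genes in VitA-GFP+ cells (circles), HSC (squares), MC (triangles) and whole liver (vertical bars), 1 array each. The circle lies farthest right of the 3 fractions for 34 genes, the square for Plvap, Calcrl and Ehd3, and the triangle for Esam and Aqp1.

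Binding motifs of the endothelial factors were looked for in the 250 bases upstream of the annotated gene starts, taken from RefSeq on build GRCm38.p6, which gave windows for 20 of the 39 genes. The ETS motif AGGAAG, on either strand, was found in 14 of 25 windows (56%), against 29.5% of 32851 windows of all genes. The GATA motif AGATAA was found in 2 of 25 windows (8%), against 9.99% of all windows. The SOX motif ATTGTT was found in 5 of 25 windows (20%), against 9.42% of all windows. A match describes the letters only, and several windows of 1 gene can overlap. The windows of Tie1, Stab2, Clec4g, Kdr and Ehd3 are shown 5′ to 3′ in the direction of the gene. Each of these genes was high in VitA-GFP+ cells. Kdr was also high in MC (10.85), and Ehd3 (12.89) and Clec4g (9.78) were also high in HSC. Kdr and Ehd3 were chosen after their values were seen. Capitals mark AGGAAG or its reverse complement CTTCCT.
Tie1, chr4:118489850-118490099, minus strand: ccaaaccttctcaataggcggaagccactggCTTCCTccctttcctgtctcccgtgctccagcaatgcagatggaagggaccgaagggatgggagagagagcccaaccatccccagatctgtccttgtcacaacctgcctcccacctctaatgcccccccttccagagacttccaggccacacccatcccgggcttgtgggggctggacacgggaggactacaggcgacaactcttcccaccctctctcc
Stab2, chr10:87007943-87008192, minus strand: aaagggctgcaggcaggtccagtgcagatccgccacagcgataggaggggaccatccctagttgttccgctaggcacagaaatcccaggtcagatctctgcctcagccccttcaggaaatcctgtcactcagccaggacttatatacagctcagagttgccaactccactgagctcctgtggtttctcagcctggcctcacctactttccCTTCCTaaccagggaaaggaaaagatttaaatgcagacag
Clec4g, chr8:3720652-3720901, minus strand: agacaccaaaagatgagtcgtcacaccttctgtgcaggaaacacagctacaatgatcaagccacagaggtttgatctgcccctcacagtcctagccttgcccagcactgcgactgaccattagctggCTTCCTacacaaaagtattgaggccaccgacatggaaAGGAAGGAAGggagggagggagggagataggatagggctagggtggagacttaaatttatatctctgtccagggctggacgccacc
Kdr, chr5:75978456-75978705, minus strand: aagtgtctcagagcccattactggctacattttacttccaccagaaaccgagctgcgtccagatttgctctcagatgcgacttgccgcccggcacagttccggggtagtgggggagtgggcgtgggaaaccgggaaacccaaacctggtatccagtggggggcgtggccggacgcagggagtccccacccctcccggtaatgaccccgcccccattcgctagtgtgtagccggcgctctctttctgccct
Ehd3, chr17:73804591-73804840, plus strand: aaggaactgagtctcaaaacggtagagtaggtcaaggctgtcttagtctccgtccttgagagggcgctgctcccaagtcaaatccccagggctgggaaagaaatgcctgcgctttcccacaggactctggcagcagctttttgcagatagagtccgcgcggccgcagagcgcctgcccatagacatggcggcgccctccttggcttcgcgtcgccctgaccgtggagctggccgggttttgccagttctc
Tie1 and Stab2 hold the ETS letters 1 time each and Clec4g holds them 3 times, with overlapping copies in 1 stretch. None of the 3 motifs is in the windows of Kdr and Ehd3, which says only that these letters are missing from these windows.

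Set against whole liver, VitA-GFP+ cells were above it for all 39 genes, by 0.65 (Nos3) to 4.06 (Lyve1). By the 4-fold rule 31 were higher, against 10.5% of all genes, and 0 were lower, against 7.26% of all genes. The median difference of the 39 genes was 2.81, while that of all genes was -0.20. All 8 sinusoidal genes met the rule, as did 9 of 11 receptors and signalling genes, 5 of 8 junction genes, 3 of 4 secreted genes, 3 of 3 lipid and water genes and 3 of 5 transcription factors. Stab2 was 7.45-fold higher in VitA-GFP+ cells than in whole liver, Stab1 12.1-fold, Lyve1 16.6-fold and Gpihbp1 16.1-fold. With the arrays shifted to the same median, the median of all genes against whole liver moves to -0.57 and the count of endothelial genes to 27 higher and 0 lower. The share of all called genes that were higher is then 47.0%, in place of 59.0%.

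The other fractions were mostly below whole liver, each with a few genes above it. BF-MC had 2 genes higher (9.39% of all genes) and 6 lower (11.4%), with a median of -0.93, and the higher ones were Lyve1 (2.27) and Mmrn1 (2.22). Lyve1 has another probe set that differed by 0.17. BF-PF had 1 gene higher (11.2% of all genes), Vwf at 2.82, and 11 lower (9.57%), with a median of -1.11. Sham PF had 2 higher (11.0% of all genes), Flt1 at 2.53 and Tek at 2.28, and 7 lower (10.7%), with a median of -1.41. In these 3 fractions the share of the set called higher was smaller than the share of all genes. The same held for BF-HSC and MC below, while in HSC it was larger. BF-HSC had 3 higher (9.30% of all genes) and 11 lower (8.92%), with a median of -1.17. Plvap (4.57), Eng (3.08) and Calcrl (2.48) were the higher ones. HSC had 5 higher (8.55% of all genes) and 21 lower (11.0%), with a median of -2.84. Plvap (4.68), Eng (3.65), Calcrl (3.09), Ehd3 (3.03) and Esam (2.74) were higher in HSC. MC had 3 higher (8.78% of all genes), Esam at 3.30, Aqp1 at 3.28 and Kdr at 2.09, and 23 lower (11.4%), with a median of -2.19. Emcn, Dnase1l3 and the other sinusoidal or capillary genes Oit3, Gpihbp1 and Cldn5 were among those lower in both HSC and MC.

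**Figure D3:**
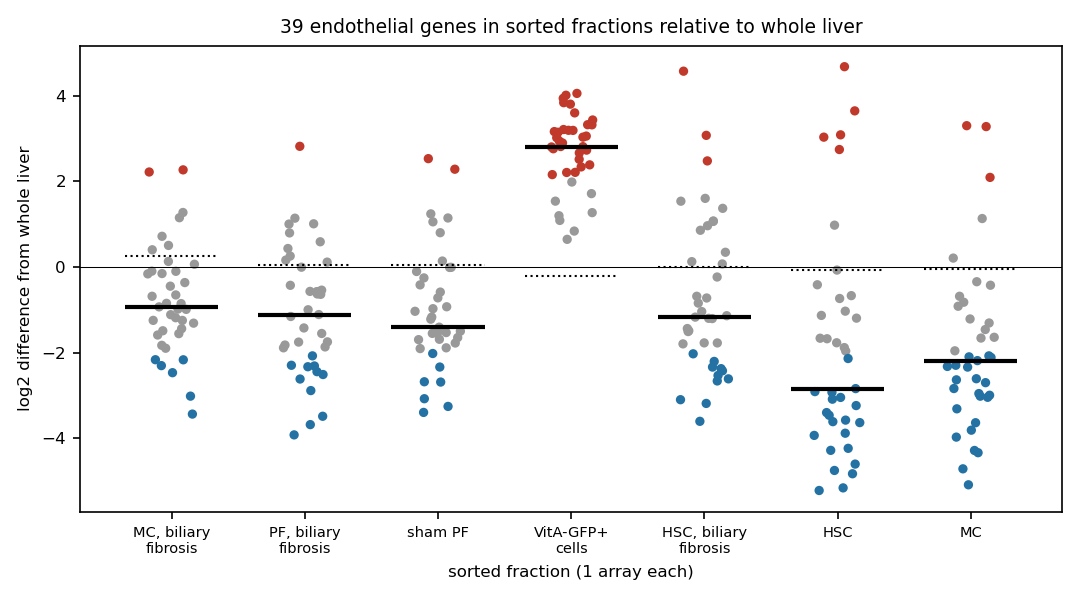
Log2 difference of each of the 39 genes (points) between a sorted fraction and whole liver, 1 array each; red and blue points are 4-fold higher and lower by the rule, thick lines are medians of the 39 genes and dotted lines medians of all genes. All points of VitA-GFP+ cells lie above 0, and the thick lines of the other 6 fractions lie below 0.

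Sham PF, the only sham-operated fraction, were set against VitA-GFP+ cells. In sham PF 33 of the 39 genes were 4-fold lower than in VitA-GFP+ cells, against 3.84% of all genes, and 0 were higher, against 1.97% of all genes. The median of the 39 genes was -4.06 and that of all genes 0.17. All 8 sinusoidal genes were lower, with a median of -4.23. Gpihbp1 was at 5.24 in sham PF, against 11.94 in VitA-GFP+ cells. Emcn was at 3.25 in sham PF, against 9.24 in VitA-GFP+ cells. The 6 genes outside the rule were Calcrl (-0.03), Tek (-0.75), Flt1 (-0.90), Plvap (-1.19), Mmrn1 (-1.45) and Erg (-1.96). Of the receptors, Calcrl, Tek and Flt1 were thus high in both fractions. With the arrays shifted to the same median, 31 of the 39 were lower and 0 higher, and the share of all called genes that were higher was 48.2%, in place of 33.9%. These arrays carry sample codes of different series, and their Gapdh ratios were 13.2 in sham PF, against 1.56 in VitA-GFP+ cells.

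Each fraction of biliary fibrosis was set against its own fraction without it. At least 1 of the 3 pairs (BF-MC against MC, BF-PF against sham PF, BF-HSC against HSC) gave a call in either direction for 25 of the 39 genes, against 19.5% of all genes, and 14 had none. Of the 39 genes 0 were higher in all 3 pairs, against 0.411% of all genes. Ptprb, Stab1, Lyve1 and Mmrn2 were higher in both BF-MC and BF-HSC, against 1.83% of all genes, and Flt4 was higher in both BF-PF and BF-HSC, against 1.27% of all genes.

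BF-MC showed a broad set of sinusoidal and other endothelial genes above MC. By the rule 14 of 39 were higher, against 6.20% of all genes, and 3 were lower, against 4.68%. The median of the 39 genes was 1.46, and that of all genes 0.25. Of the sinusoidal genes 5 of 8 were higher, with a median of 2.59: Lyve1 (3.09), Clec4g (3.03), Gpr182 (2.88), Stab2 (2.86) and Stab1 (2.32). The other probe set of Lyve1 differed by -0.08. The rest were Sox17 (3.01), Gpihbp1 (2.96), Mmrn1 (2.90), Plvap (2.62), Nos3 (2.55), Mmrn2 (2.53), Robo4 (2.39), Ptprb (2.18) and Erg (2.18). Carriers, matrix proteins and receptors of capillaries were thus among them, along with a SoxF factor and an ETS factor. Stab2 was at 9.03 in BF-MC, against 6.18 in MC and 9.14 in whole liver. Plvap was at 5.90 in BF-MC, against 3.28 in MC and 8.37 in whole liver. Hepatocyte markers summed to 1111 in BF-MC, against 301 in MC, PF markers to 7438 in BF-MC, against 17575 in MC, and cholangiocyte markers to 6908 in BF-MC, against 17086 in MC. Their part was not tested. The lower genes were Kdr (-3.08), Aqp1 (-2.13) and Esam (-2.03), the same 3 that the rule called higher in MC than in whole liver. Kdr was at 7.77 in BF-MC, against 10.85 in MC. With the arrays shifted to the same median, 16 genes were higher and 1 was lower, so the share higher among called genes was 94.1% in place of 82.4%. With probe sets averaged per gene, 8 genes were higher, and 5 with the minimum level at the 75th percentile of the array. The shares of all genes under these settings are not given here.

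BF-HSC also carried endothelial genes that were low in HSC, 4 of them shared with BF-MC. By the rule 10 of 39 were higher than in HSC, against 5.90% of all genes, and 1 was lower, against 3.13%. The median of the 39 genes was 0.83, and that of all genes 0.13. Sox7 differed most (4.53), followed by Ptprb (4.38), Fabp4 (4.14), Stab1 (3.95), Vwf (3.42), Flt4 (3.36), Flt1 (3.33), Mmrn2 (3.10), Aqp1 (2.98) and Lyve1 (2.26). Sox7 was at 8.39 in BF-HSC, against 3.86 in HSC. Stab1 was at 8.58 in BF-HSC, against 4.64 in HSC. The probe sets of Lyve1 ranged between -0.72 and 2.26, and with the minimum level at the 75th percentile 5 of the 10 genes were called. The share of all genes at that minimum level is not given here. In the same pair 9 of 9 PF markers were at or above the array median in BF-HSC (sum 7090), against 3 of 9 in HSC (sum 290). Cholangiocyte markers were so for 7 of 8 in BF-HSC, against 1 of 8 in HSC, and hepatocyte markers summed to 12974 in BF-HSC, against 5258 in HSC. The part of these lists in the endothelial differences was not tested. The junction genes Pecam1, Emcn and Cldn5 were below the array median in both BF-HSC and HSC. Esam was the 1 lower gene, at 7.74 in BF-HSC, against 10.14 in HSC. Ehd3 and Clec4g, with differences of -1.97 and -1.92, did not meet the rule. Plvap, Eng and Calcrl, in which HSC stood above whole liver, were within 0.61 of HSC in BF-HSC.

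BF-PF against sham PF gave fewer calls among the endothelial genes than the other pairs. By the rule 2 of 39 genes were higher, against 3.77% of all genes, and 3 were lower, against 1.58%. The higher genes were thus near the share of all genes, and the lower genes were a larger share. The median of the 39 genes was -0.11, and that of all genes -0.01. Esam was at 7.56 in BF-PF, against 4.72 in sham PF, a difference of 2.84. Flt4 was at 9.56 in BF-PF, against 7.46 in sham PF, a difference of 2.10. These 2 were the higher genes. Dnase1l3 was at 6.45 in BF-PF, against 8.84 in sham PF, a difference of -2.39. Calcrl was at 8.84 in BF-PF, against 11.19 in sham PF, a difference of -2.35. Tek was at 8.51 in BF-PF, against 10.80 in sham PF, a difference of -2.29. For Calcrl, a dim probe set whose name carries no suffix letter differed by 0.21 (3.56 in BF-PF, against 3.35 in sham PF). It was below the array median on both arrays. The receptors that sham PF shared with VitA-GFP+ cells, Calcrl and Tek, were thus among the lower genes, and Flt1 was at 8.12 in BF-PF, against 9.64 in sham PF.

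**Figure D4:**
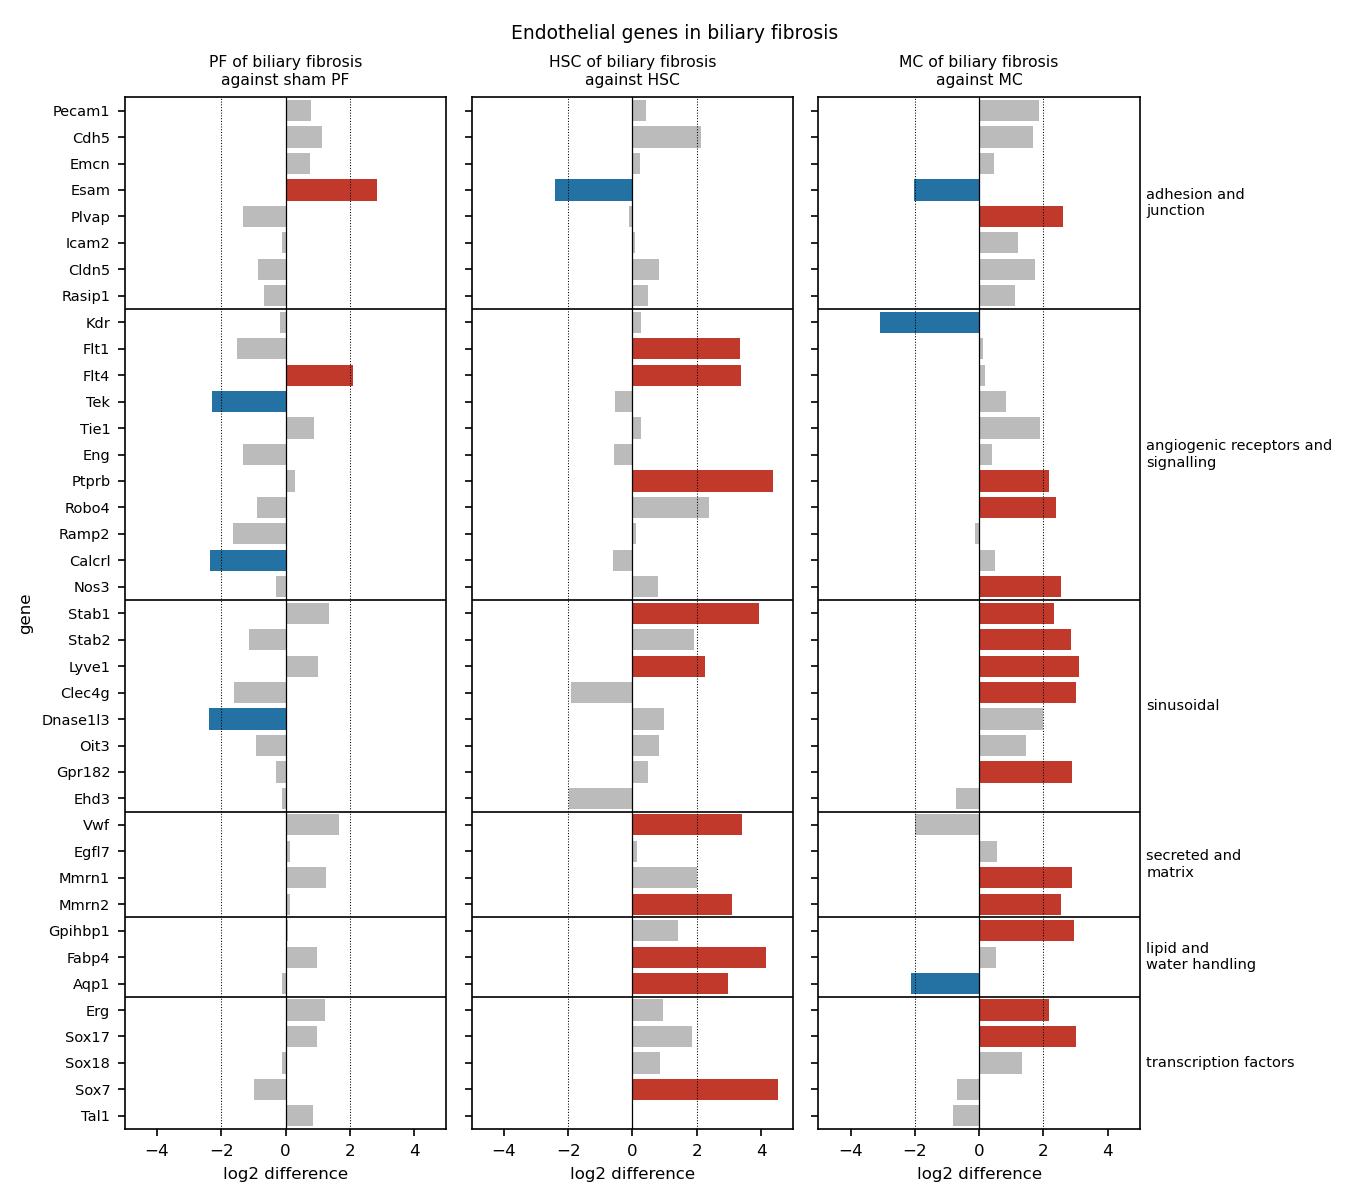
Log2 difference of each of the 39 genes in the 3 pairs of biliary fibrosis, 1 array a side; red and blue bars are 4-fold higher and lower by the rule, grey bars are not called (a grey bar past the dotted line at 2 has its higher array under the array median). Red bars are most frequent for BF-MC against MC (14) and fewest for BF-PF against sham PF (2).

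BF-MC was also set against the fibrotic fractions of its own code series, a comparison chosen after seeing the data. There 3 genes were higher in BF-MC than in both BF-HSC and BF-PF, against 1.53% of all genes, and 8 were lower when set against whichever of those fractions had more, against 8.71% of all genes. The higher ones were Aqp1 (2.90), Stab2 (2.21) and Pecam1 (2.2). The lower ones were Plvap (-7.04), Sox7 (-4.62), Ramp2 (-4.51), Eng (-4.32), Calcrl (-4.07), Vwf (-3.67), Ehd3 (-3.23) and Flt1 (-2.56), with BF-PF as the higher fraction for Vwf and BF-HSC for the rest. The median of the 39 genes was 0.27 and that of all genes -0.16. Of 46 endothelial genes outside the set, 0 were higher (1.53% of all genes) and 12 lower (8.71%).

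Markers of other cell types also differed between the arrays, not always in the same direction as the endothelial genes. In VitA-GFP+ cells 13 of 15 macrophage markers were at or above the array median, against 2 in HSC, 3 in MC and 15 in whole liver. Their summed linear intensity was 9840 in VitA-GFP+ cells, against 480 in HSC, 1391 in MC and 20459 in whole liver. Clec4f, a marker of Kupffer cells, was at 8.83 in VitA-GFP+ cells, against 4.46 in HSC, 4.26 in MC and 11.41 in whole liver. Of the 15 markers 13 were lower in VitA-GFP+ cells than in whole liver and 2 were higher, Lyz2 (11.10 in VitA-GFP+ cells, against 10.94 in whole liver) and Cd14 (7.92 in VitA-GFP+ cells, against 6.87 in whole liver). In the pairs, the sum was 7848 in BF-MC against 1391 in MC, 9560 in BF-PF against 808 in sham PF, and 12702 in BF-HSC against 480 in HSC. Clec4f stayed below the array median in BF-MC (5.05), BF-PF (4.40) and BF-HSC (4.69), as did Vsig4 and Timd4. Other markers did not: Cd5l was above the median in BF-MC (5.47), BF-PF (5.66) and BF-HSC (7.16). Marco was above it in BF-MC (5.48) and BF-HSC (6.16), but not in BF-PF (4.73). Of the 15 markers, 11 reached the median in BF-MC (59.6% of all genes), 9 in BF-PF (59.5%) and 12 in BF-HSC (58.0%). The part of these markers in the results on Stab1, Lyve1, Fabp4 and Dnase1l3, which macrophages can also express, was not tested.

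Lists of other blood and fat cells were read as well. Leukocyte markers summed to 1990 in VitA-GFP+ cells, against 214 in HSC and 631 in MC. In the pairs they summed to 2400 in BF-MC against 631 in MC, 734 in BF-PF against 468 in sham PF, and 1315 in BF-HSC against 214 in HSC. Of 6 measured erythroid and 4 measured adipocyte markers, 0 reached the array median in VitA-GFP+ cells, HSC, MC or sham PF. Platelet genes, a further source of Vwf and Mmrn1, summed to 1430 in BF-MC against 1608 in MC, and to 4493 in BF-HSC against 5749 in HSC. Most of these sums came from Itgb3, which other cells express too. Without it, a choice made after seeing the data, they were 354 in BF-MC against 177 in MC and 1630 in BF-HSC against 1143 in HSC. The part of these lists in the results was not tested. VitA-GFP+ cells held markers of many other liver cells at or above the array median: 10 of 10 for HSC, 9 of 9 for PF, 9 of 9 for mesothelium, 7 of 7 for smooth muscle, 8 of 8 for cholangiocytes and 7 of 10 for hepatocytes. The smooth muscle median, 6.50 above the array median, was the highest of the lists on that array. Cholangiocyte markers, which bear on Aqp1, summed to 7627 in VitA-GFP+ cells, against 177 in HSC, 17086 in MC and 1501 in whole liver. Their part in the Aqp1 values was not tested.

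**Figure D5:**
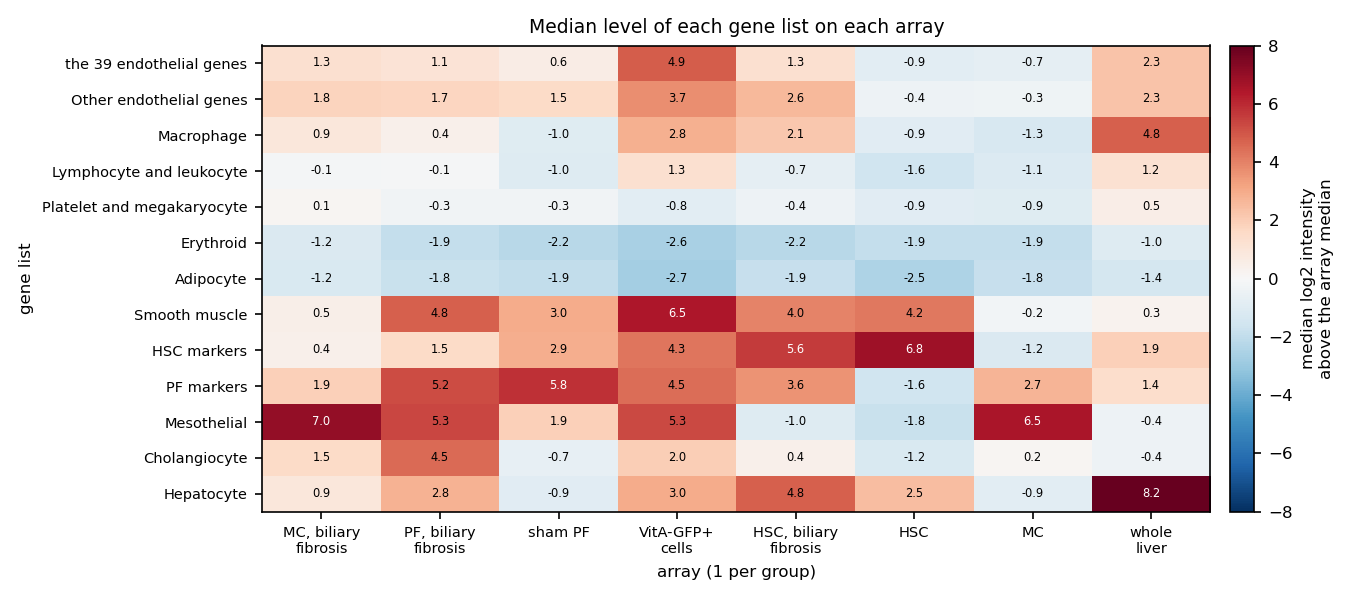
Median level of the 39 endothelial genes and of 12 other gene lists (rows) on each of the 8 arrays (columns), as log2 intensity above the array's own median. The endothelial row is highest in VitA-GFP+ cells (4.87), and the macrophage row is highest in whole liver (4.79).

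Across the 8 arrays, the level of Cdh5 served as a yardstick for the others. Pearson's r with Cdh5 was at least 0.8 for 17 of the 38 other genes, from 0.4 to 0.8 for 15 and lower for 6, with a median of 0.77. Ptprb (0.95) and Sox17 (0.94) were most like Cdh5. Esam (-0.14), Plvap (-0.12), Eng (0.01), Calcrl (-0.21), Ramp2 (0.30) and Ehd3 (-0.03) were the 6 least like it. Cdh5 was lowest in HSC, so a gene with a high level there has a lower r by construction. Relative to the array median, Cdh5 was at -2.64 in HSC, -1.72 in MC, -0.82 in sham PF and -0.48 in BF-HSC. It was at 0.12 in BF-MC and 0.29 in BF-PF. Its other probe set was below the median on every array. The r values are therefore limited by background signal. These values describe 8 unlike mixtures that share arrays and normalization. The r of all genes with Cdh5 was not computed, so the values do not show whether 17 of 38 is unusual.

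A list of 46 endothelial genes outside the set was read in the same way. In VitA-GFP+ cells 20 of 46 were 4-fold higher than in both HSC and MC, against 3.15% of all genes. Their median difference was 1.58, and that of all genes -0.31. Rspo3 was the 1 lower gene (-2.63), against 968 lower of all 20677 genes. The largest were Adgrl4 (6.89), F8 (6.54), Cd93 (6.46) and Myct1 (6.19). F8, the coagulation factor made by sinusoidal endothelium, was at 11.72 in VitA-GFP+ cells, against 3.91 in HSC, 5.18 in MC and 8.89 in whole liver. Against whole liver 26 of 46 were higher (10.5% of all genes) and 2 lower (7.26%) in VitA-GFP+ cells. In the fibrosis pairs, 13 of 46 were higher (6.20% of all genes) and 0 lower (4.68%) in BF-MC than in MC. In BF-PF 4 were higher (3.77% of all genes) and 2 lower (1.58%) than in sham PF. In BF-HSC 15 were higher (5.90% of all genes) and 0 lower (3.13%) than in HSC. Cd93, a lectin-like receptor of endothelium and monocytes, was at 9.44 in BF-MC against 5.41 in MC and at 9.98 in BF-HSC against 4.37 in HSC. Cd34, a sialomucin of capillaries and also of fibroblasts, was at 10.19 in BF-HSC against 2.73 in HSC.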

How the data were processed

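Total RNA of 8 mouse liver samples, 1 per group, was amplified with the Nugen Ovation system and hybridised to Affymetrix mouse arrays, per the labels' protocols. The deposited intensity values are linear. The submitters' processing notes name RMA and Partek for the normalization by the authors (versions and the number of arrays normalized together are not given in the sources used here). The design assumed log2 values, so log2 of the deposited values was taken. The precision of a value is limited by its single array.

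The members, roles and marker lists were chosen with earlier results of these data known. Of 45101 probe sets, 38011 name 1 gene, 1280 several and 5746 none, and 64 are controls. Symbols were updated through RefSeq gene identifiers for 35025. Each of 20677 genes took its probe set with the highest mean. Of the 39 genes 18 have several probe sets, 68 probe sets in all. Probe sets naming several genes were left out, which departs from the rule for the 39 genes only for Ramp2. Calls needed a log2 difference of 2 and an array median or more on the higher array.

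Every array value was given for the 3 genes per role with the highest level and for genes called in a fibrosis pair, and the 4 largest differences were named for other endothelial genes. Alternatives were quantile normalization (R 4.3.3, limma 3.58.1), a shift to 1 median, the mean of probe sets, unsuffixed probe sets, other minimum levels and a cut of 1 in log2. Added after seeing the data were probe sets naming several genes, and BF-MC against the other fibrotic fractions. Values in both deposited tables are identical, with a largest difference of 0, so the other table gave no separate result. The steps were tested on simulated data. Python 3.11.15, numpy 2.4.6, pandas 2.3.3 and matplotlib 3.10.9 did the rest.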

Additional observations from a re-analysis of the deposited data

Results flagged for a closer look

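Esam and Aqp1 differed in opposite directions between fractions under biliary fibrosis. The Esam difference of BF-PF against sham PF exceeded that of BF-HSC against HSC by 5.24 and that of BF-MC against MC by 4.87 on the log2 scale. The Esam difference itself was 2.84 for PF, -2.40 for HSC and -2.03 for MC. The Aqp1 difference of BF-HSC against HSC exceeded that of BF-MC against MC by 5.11, with 2.98 for HSC and -2.13 for MC. Each pair is 1 array against 1 array, so these differences were not tested. The HSC and MC pairs cross series of sample codes, and the PF pair does not. The PF pair differs in both Xist and Ddx3y, and the MC pair in Xist.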

How the results depend on the processing

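With 1 array per group there is no replicate to leave out. No paired analysis was possible because each group is 1 array. Of the genes called in the fibrosis pairs, Calcrl in BF-PF against sham PF changed direction under 1 setting: it was 0.214 with unsuffixed probe sets (32 of 39 genes measured), in place of -2.35. The unsuffixed probe set of Calcrl was below the array median on both arrays, so its direction is limited by background signal. Of the alternative counts 159 stayed within 1.5 times and 22 did not.

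With the minimum level at the 75th percentile, 1 gene was higher in BF-MC, 0 in BF-PF than in whole liver, and the lower genes were 5 in BF-PF, 1 in sham PF, 4 in BF-HSC, 8 in HSC and 9 in MC. In the pairs, 5 were then higher in BF-MC than MC, 1 in BF-PF than sham PF and 5 in BF-HSC than HSC. With the mean of probe sets, 0 genes in BF-MC and 1 in sham PF were higher than in whole liver, 8 were higher in BF-MC than MC, 1 was higher and 1 lower in BF-PF than sham PF, and 5 were lower in BF-MC than in the higher of BF-HSC and BF-PF. With unsuffixed probe sets, 1 gene in BF-HSC was higher than in whole liver and 2 were lower in BF-HSC than HSC. With the arrays shifted to the same median, 1 gene was lower in BF-MC than MC. At a difference of 1, 7 genes were higher and 9 lower in BF-PF than sham PF, and 3 lower in BF-HSC than HSC. The share of all genes called under these settings is not given here, so the counts do not show a gain or loss relative to all genes. The cause of these shifts was not tested.

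Genes dim on every array, such as Mmrn1, are limited by background signal.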

Other observations

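In BF-PF, Prox1, a transcription factor of hepatocytes and lymphatic endothelium, was at 11.17, against 5.95 in sham PF. Hhex, a factor of early endothelium and liver epithelium, was at 10.76 in BF-PF, against 5.87 in sham PF. Both had been listed among the other endothelial genes. Cholangiocyte markers at or above the array median were 8 of 8 in BF-PF, against 3 of 8 in sham PF, and hepatocyte markers were 9 of 10 in BF-PF, against 4 of 10 in sham PF. Their part in these 2 differences was not tested.

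Rspo3, a Wnt amplifier of central vein endothelium, was at 9.67 in VitA-GFP+ cells, against 12.30 in HSC, 3.92 in MC and 7.47 in whole liver. Pf4, a platelet chemokine, was at 9.05 in BF-HSC and 9.53 in HSC. Of the other 7 platelet genes, Itga2b (9.93 in BF-HSC, 8.33 in HSC) and Itgb3 (11.48 in BF-HSC, 12.17 in HSC) were above the array median on both arrays, and the other 5 were below it. Rspo3 and Pf4 were chosen after their values were seen.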
